A study of Rattus norvegicus with 3 samples.

Results

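The proteasome is the large protease that degrades proteins tagged with ubiquitin in the cytosol and nucleus. The genes described here are those whose name on the array starts with Psm, followed by a letter from a to g and a digit. They number 50 of the 26140 genes on the array and were read by 57 probes, with 163 spots on each array. Of these, 20 encode the core particle (Psma and Psmb), 21 carry names of the regulatory particle (Psmc and Psmd) and 9 are activators, an inhibitor and assembly chaperones (Psme, Psmf and Psmg). All but Psma8 were measured, which leaves 49 among 14396 measured genes. A gene counted as measured where a probe had at least 50% of its spots well above background on all 3 arrays. The name rule also brought in Psmc3ip, a meiotic recombination cofactor that is no proteasome subunit, and Psma3l, a near copy of Psma3.

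The study asked how inorganic polyphosphate, a chain of linked phosphates, changes gene expression in ROS17/2.8 cells, which are a clonal line from a rat osteosarcoma used as an osteoblast model. Confluent cells of all 3 groups were in mineralization medium, which adds L-ascorbate phosphate and β-glycerophosphate to the growth medium, so the control carried these as well. The high dose group received 1 mg/ml polyphosphate for 24 h, the low dose group received 0.01 mg/ml for 24 h, and the control received none, with no time stated in its label. Each group was 1 one-colour array, so no difference below has a replicate, a test or a p-value. The 3 arrays lay on the same slide, and slide position and group cannot be told apart.

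A level below is the processed Cy3 signal of a gene divided by the 75th percentile of the signals on its array. That percentile was 926 to 964 across the arrays, and 55.9% to 57.2% of probes were well above background. A difference is the log2 ratio of the levels on both arrays, and the ± value is a spot error, the standard error expected from the scatter of repeat spots. It leaves out everything that differs between cultures. The 8 usable spike-in probes, which report control RNA added during labelling, were lower on both treated arrays relative to this percentile, with a mean log2 difference from the control of -0.15 for the high dose and -0.16 for the low dose. Centring the arrays on them therefore turns several directions against the control, as given beside the results. Of 9 osteoblast markers, 7 were measured, with a summed level of 23.7 to 24.7, carried mainly by Spp1 (12.8 at 1 mg/ml, 10.9 at 0.01 mg/ml and 10.7 untreated). At the high dose Spp1 was 0.26 above the control, while Alpl was at -0.13, Runx2 at -0.16, Sp7 at -0.20 and Col1a1 at -0.23. Spike-in centring would move each of these marker differences up by 0.15, and their spot errors are not given here. Phex and Dmp1, which mark the late stage, were not well above background, and Bglap (osteocalcin) was close to it at 0.0448 to 0.0539. Of 8 macrophage or leukocyte markers, 5 were measured, with a summed level of 0.575 to 0.622, and Ptprc, Cd3e and Cd74 were not well above background. The chondrocyte markers (4 of 6 measured) summed to 0.556 to 0.735 and the endothelial markers (2 of 4) to 0.201 to 0.247. The muscle markers (4 of 5) summed to 2.04 to 2.17, mainly from Ckm, and the adipocyte markers (2 of 5) to 6.86 to 7.62, mainly from Cfd. The adipocyte and endothelial sums were highest on the high dose array and the muscle and chondrocyte sums lowest there. The muscle sum followed Ckm, at -0.11 from the control, while the dimmer Myog, Des and Myh3 were above it by 0.07, 0.21 and 0.38. The part of these markers and of the osteoblast genes in the results was not tested.

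The core particle is a barrel of stacked rings. The outer alpha rings gate the entrance, and the inner beta rings hold the proteolytic sites. The regulatory particle sits on the end of the barrel: its base holds a ring of ATPases that unfold substrates, and its lid removes the ubiquitin chains. Cells are known to set the transcription of most subunit genes together, in mammals through the transcription factor NRF1 (Nfe2l1), which binds antioxidant response elements. In bone, proteasome inhibitors are known to stimulate osteoblasts.

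The probes are 60 bases long. Those below belong to genes on which the results turn. First come the 4 lid and base subunit genes with the lowest high dose differences from the control. Both catalytic subunit genes furthest from the control there follow. Last is the lid gene that departed from the rest on the low dose array. All probes are printed 5′ to 3′ as the array carries them, with rn4 coordinates from the array files and no letter capitalised. Whether these positions lie in an exon or a UTR was not annotated here.
Psmd3 probe, chr10:87466177-87466236 (+): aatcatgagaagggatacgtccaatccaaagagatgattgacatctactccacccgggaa
Psmd12 probe, chr10:96907046-96907105 (+): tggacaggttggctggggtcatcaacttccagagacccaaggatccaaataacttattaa
Psmd13 probe, chr1:201055782-201055841 (+): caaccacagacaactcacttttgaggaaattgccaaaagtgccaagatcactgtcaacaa
Psmd1 probe, chr9:84882853-84882912 (+): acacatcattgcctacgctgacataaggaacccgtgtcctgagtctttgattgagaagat
Psmb6 probe, chr10:57371368-57371427 (+): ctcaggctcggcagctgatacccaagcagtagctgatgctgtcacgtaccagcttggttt
Psmb5 probe, chr15:32690134-32690193 (-): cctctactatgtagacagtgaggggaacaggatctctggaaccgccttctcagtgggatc
Psmd7 probe, chr19:37452992-37453051 (-): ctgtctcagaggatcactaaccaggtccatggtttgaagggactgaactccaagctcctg

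Most proteasome genes read slightly lower at 1 mg/ml than without polyphosphate. Of the 49 genes, 40 were below 0 (81.6%), with a median difference of -0.07, against 52.1% of all measured genes and a median of -0.01 over them. With the arrays centred on the spike-in probes the direction turned: the median was 0.09, 41 of the 49 genes were above 0, and the median of all genes was 0.15. The median of the proteasome genes minus that of all genes was -0.06. Spike-in centring moves every gene of an array alike, so it cannot change this value and is no second check of it. The differences were small. They ran from -0.23 (Psmd3) to 0.05 (Psmd5), and none of the 49 genes was 1.2-fold apart, against 7.04% of all genes at least 1.2-fold higher and 7.77% at least 1.2-fold lower. Of the genes as bright, 1.55% were 1.2-fold higher and 1.9% lower. Below 0 by more than 2 spot errors were 14 genes (28.6%), against 12.9% of all genes and 16.9% of the 4779 genes at least as bright as the lower quartile of the family. None of the 49 was above by as much, against 10.7% of all genes. With spike-in centring none of these 14 calls was left, and 19 of the 49 genes lay above 0 by that distance (41.1% of all genes and 58.0% of those as bright). These are differences in RNA from whole cultures relative to the other signals of each array, and RNA per cell was not measured.

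At the low dose the genes were spread around the control. Of the 49 genes, 31 were above 0 and 18 below, with a median of 0.02 beside 0.00 for all genes, of which 49.5% were below 0. Of the genes as bright, 57.65% were above 0 and 42.35% below. With spike-in centring 47 of the 49 were above 0, with a median of 0.18 beside 0.16 for all genes. Without spike-in centring, those beyond 2 spot errors were Psmc6 and Psmd6 above (4.31% of all genes) and Psmd7, Psmd12 and Psme3 below (4.58% of all genes). With it, 39 were above and 0 below by as much. No proteasome gene was 1.2-fold apart from the control, against 3.76% of all genes higher and 4.79% lower, and 0.75% and 0.29% of those as bright.

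Between the doses the spike-in probes had a mean log2 difference of 0.00 and left the values in place. Of the 49 genes, 44 read lower at 1 mg/ml, against 53.1% of all genes and 60.8% of those as bright. The median was -0.09, and -0.09 also with spike-in centring. Below 0 by more than 2 spot errors were 20 genes (40.8%), against 10.7% of all genes and 15.3% of those as bright. Spike-in centring left this count at 20, but it hardly acts between the doses and is no second check of it. Quantile normalization put the median at -0.06 and lowered the count, as given in the last section. Psmd7 and Psme4 were above by as much, against 9.64% of all genes. Psmd7 was at least 1.2-fold higher and Psmc3ip at least 1.2-fold lower, shares that were 6.88% and 6.06% over all genes and 0.88% and 1.19% over those as bright. Both lie close to this limit: neither passed it with normexp background correction, and Psmd7 did not with spike-in centring. The comparisons share arrays: a low reading on the high dose array enters both differences that involve it.

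**Figure D1:**
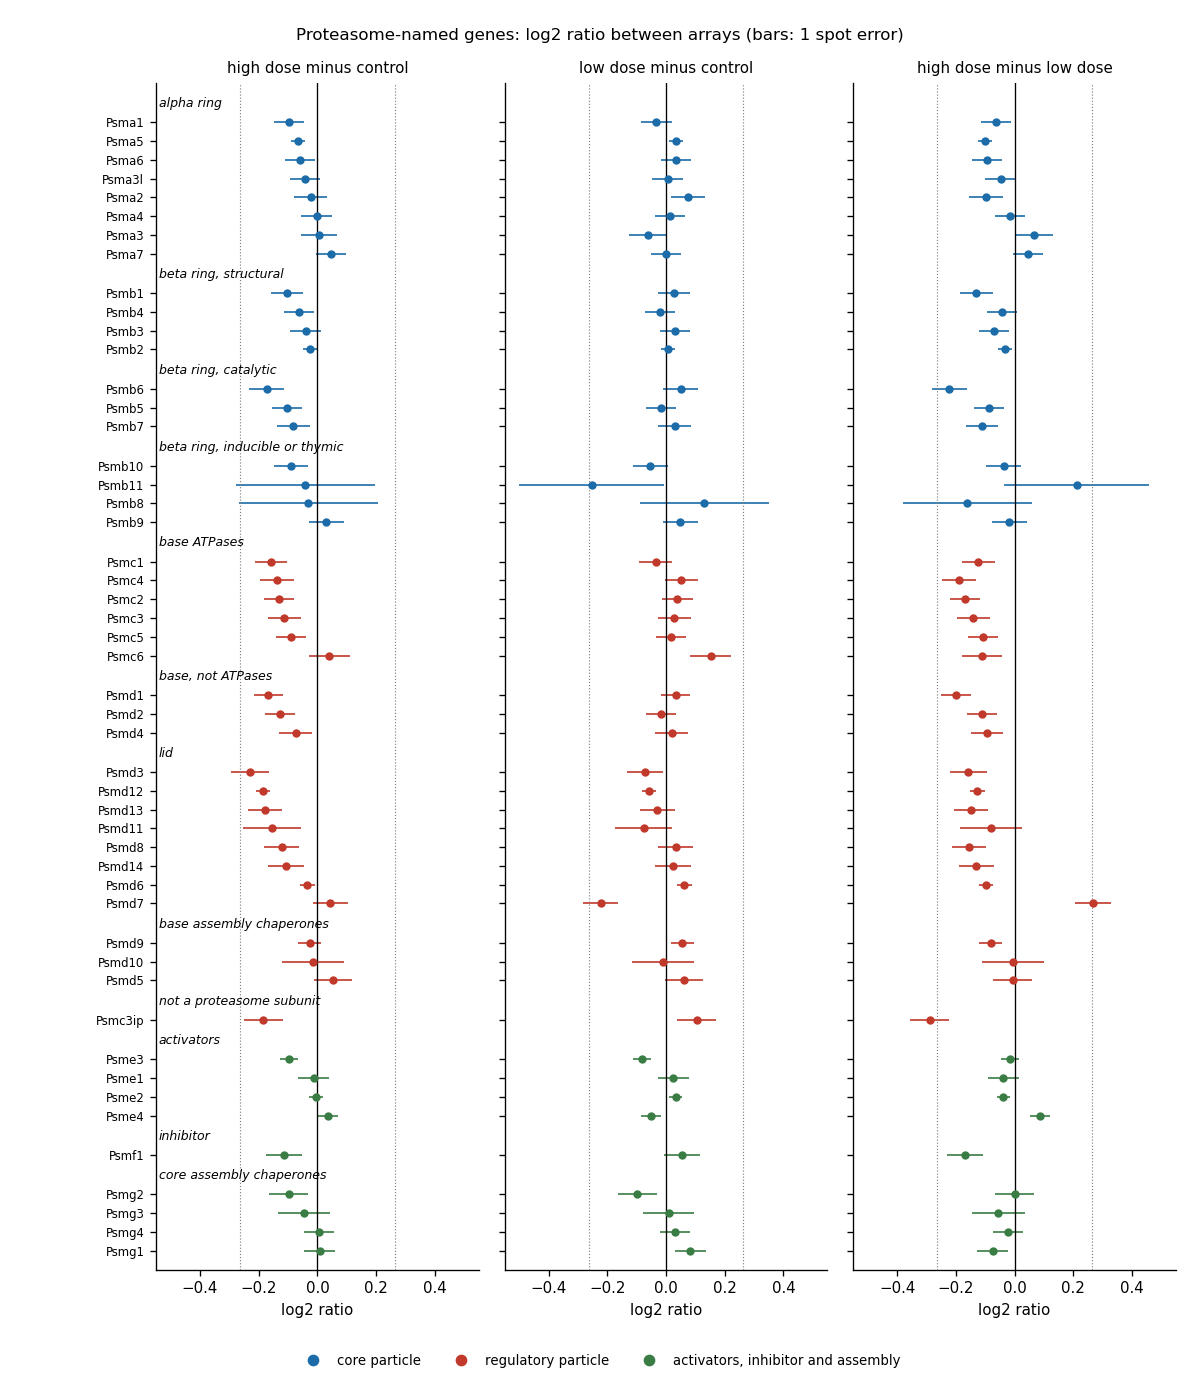
Log2 ratio of the 49 measured genes between each pair of arrays, grouped by role (x axis: log2 ratio on the 75th percentile scale, bars: 1 spot error, dotted lines: 1.2-fold, colours: class). Most base and lid genes lie left of 0 wherever the high dose array is compared, and with the arrays centred on the spike-in probes 41 of the 49 genes lie right of 0 for the high dose against the control.

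In the alpha ring, which forms the gate, 6 of 8 measured genes were below the control at 1 mg/ml, beside 52.1% of all genes, with a median of -0.03. Psma5 was the single alpha gene beyond 2 spot errors. Its level was 12.9 at 1 mg/ml, 13.8 at 0.01 mg/ml and 13.5 untreated, a difference of -0.07 ± 0.02 from the control and -0.10 ± 0.02 from the low dose. Psma7 read 14.4, 13.9 and 13.9 in the same order (high dose, low dose, control, as below). Its high dose difference, 0.05 ± 0.05 above the control, was among the 5 highest of the family. Psma1 read 8.90, 9.30 and 9.51, which placed it -0.10 ± 0.05 from the control, the lowest of the ring. The remaining alpha genes, Psma2, Psma3, Psma3l, Psma4 and Psma6, were within 2 spot errors of 0 in every comparison. Psma3 and Psma3l have probes at neighbouring sites, chr6:93112068-93112127 and chr6:93111009-93111068 in rn4, and the array lists a Psma3 transcript for both, so the copies cannot be told apart. Psma8, the alpha subunit of the testis form, had 3 probes of 1 spot, none well above background on any array.

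The structural beta genes Psmb1, Psmb2, Psmb3 and Psmb4 were all below the control at 1 mg/ml, with a median of -0.05, and none by more than 2 spot errors. Over all genes these shares were 52.1% and 12.9%. The catalytic genes were lower too, with a median of -0.10 over 3 genes. Psmb6, whose product holds the caspase-like site, read 2.80 at 1 mg/ml, 3.27 at 0.01 mg/ml and 3.15 untreated. Its high dose spots (2.77 and 2.83) lay below the control spots (2.96 and 3.36), as for 28.8% of all probes with 2 spots. The difference was -0.17 ± 0.06. Between the doses it was -0.22 ± 0.06, the lowest value of the core particle. Psmb5, which carries the chymotrypsin-like site that is the main target of proteasome inhibitors, read 15.0, 16.0 and 16.1. At -0.10 ± 0.05 from the control it was -1.99 spot errors away, just inside the limit. Psmb7, with the trypsin-like site, read 6.48, 7.0 and 6.86, a difference of -0.08 ± 0.06 from the control. All 3 catalytic genes thus had their lowest reading on the high dose array, but with spike-in centring the differences from the control were -0.02 for Psmb6, 0.05 for Psmb5 and 0.07 for Psmb7.

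The inducible partners replace the catalytic subunits in the immunoproteasome, the form that interferon induces for antigen processing. None of them left the control by 2 spot errors at either dose. Psmb8 was close to background at 0.0569, 0.0637 and 0.0582, with a spot error of 0.24, so only large changes would be visible. Psmb9 read 2.15, 2.17 and 2.10, which is 0.03 ± 0.06 above the control at the high dose. Psmb10 read 2.88, 2.96 and 3.07, which is -0.09 ± 0.06 from the control. Both thus stayed within 1.2-fold of the control. Psmb11, the thymic form, was near background as well, with 1 of its 2 probes measured at 0.0456, 0.0394 and 0.0469. Its low dose difference of -0.25 ± 0.25 is about the size of its spot error.

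The regulatory particle held most of the low readings. At the high dose 18 of its 21 genes were below the control, with a median of -0.12, and 11 were below by more than 2 spot errors, beside 12.9% of all genes and 16.9% of those as bright. With spike-in centring this median turned above 0 as well, to 0.03, and 0 of the 21 were below by 2 spot errors. Against the low dose array, 20 of 21 were below, with a median of -0.12 and 15 past 2 spot errors. Spike-in centring, which hardly acts between the doses, left both counts in place. Over all genes 53.1% were below the low dose and 10.7% by more than 2 spot errors. Over those as bright these shares were 60.8% and 15.3%. The core particle had medians of -0.04 against the control and -0.06 against the low dose. Of its 19 genes, 2 (10.53%) and 4 (21.05%) were below by more than 2 spot errors, the first under the share of all genes. Leaving out chaperones and Psmc3ip, the 17 Psm-named subunits of the regulatory particle had a median of -0.13 against the control, and the 14 constitutive core subunits -0.06. Sem1 and Adrm1, which belong to this particle but fall outside the name rule, were at 0.03 ± 0.04 and -0.23 ± 0.13 at the high dose. The difference between the particles was not tested.

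The differences from the control and the spot separations given for single genes are on the 75th percentile scale, and with spike-in centring no gene or repeat-spot pair of the family stayed clear below the control at the high dose. The base carries 6 ATPases, Psmc1 to Psmc6, that form the unfolding ring. Of these, 5 were below the control at the high dose and 4 by more than 2 spot errors, with a median of -0.12. The shares were 52.1% and 12.9% over all genes, and 53.8% and 16.9% over those as bright. Psmc1 read 6.92, 7.54 and 7.73 and lay furthest from the control, at -0.16 ± 0.06. Psmc4 read 3.27, 3.73 and 3.60 and lay furthest from the low dose, at -0.19 ± 0.06. Psmc6 alone was not below the control at the high dose. It read 0.780, 0.842 and 0.758, which is 0.15 ± 0.07 above the control at 0.01 mg/ml. At 1 mg/ml it was 0.04 ± 0.07 above the control, within 1 spot error of 0, though among the 5 highest of the family. Against the low dose it was at -0.11 ± 0.07, and all 6 ATPases were below 0 there. The base also holds Psmd1 and Psmd2, large scaffolds that dock ubiquitin carriers, and Psmd4, a ubiquitin receptor. Psmd1 read 37.6 at 1 mg/ml, 43.1 at 0.01 mg/ml and 42.2 untreated. Both high dose spots (37.2 and 38.0) were below both control spots (40.9 and 43.5), as for 28.8% of all probes with 2 spots. The difference was -0.17 ± 0.05 from the control and -0.20 ± 0.05 from the low dose. Psmd2 was -0.13 ± 0.05 from the control and Psmd4 -0.07 ± 0.06.

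The lid held the lowest high dose difference of the family. Its median was -0.14 at the high dose, with 7 of its 8 Psm-named genes below the control, beside 52.1% of all genes. Psmd3, a scaffold subunit of the lid, read 1.25 at 1 mg/ml, 1.39 at 0.01 mg/ml and 1.46 untreated. Its high dose spots (1.18 and 1.32) lay below its control spots (1.43 and 1.49), as for 28.8% of all probes with 2 spots. The difference was -0.23 ± 0.06. Psmd12, another structural lid subunit, read 7.52, 8.22 and 8.55, which is -0.18 ± 0.02 from the control at 1 mg/ml and -0.06 ± 0.02 at 0.01 mg/ml. The control was its highest array and the high dose its lowest. Psmd13, also a lid subunit, read 2.99, 3.32 and 3.39, a difference of -0.18 ± 0.06. Psmd8 was -0.12 ± 0.06 from the control. Psmd11 at -0.16 ± 0.10, Psmd14 (the deubiquitinase that cuts the chain off the substrate) at -0.11 ± 0.06 and Psmd6 at -0.03 ± 0.02 were below the control by less than 2 spot errors.

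Psmd7, which pairs with Psmd14 in the lid, was the single gene of the regulatory particle with its lowest reading on the low dose array. It read 2.32 at 1 mg/ml, 1.93 at 0.01 mg/ml and 2.25 untreated. Both low dose spots (1.89 and 1.97) lay below the control spots (2.23 and 2.27) and the high dose spots (2.28 and 2.37). Of all probes with 2 spots, 18.9% were placed so against the control and 23.7% against the high dose. The low dose difference was -0.22 ± 0.06, and the high dose exceeded the low dose by 0.27 ± 0.06, or 1.2-fold (0.25 with normexp background correction, under that limit). Psmc3ip was the opposite case: it read 0.858, 1.05 and 0.975, which is -0.18 ± 0.07 from the control at the high dose, 0.10 ± 0.07 at the low dose and -0.29 ± 0.07 between the doses. Each of these genes rests on 1 probe of 2 spots.

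The assembly chaperones were closer to the control. Psmd5, Psmd9 and Psmd10 guide the ATPase ring together, and their median was -0.01 at the high dose. Psmd5 read 1.07, 1.08 and 1.03. Its high dose difference, 0.05 ± 0.07 above the control, was the highest of the family, though within 1 spot error of 0. Psmg1 and Psmg2 act as a dimer on the alpha ring, and Psmg3 and Psmg4 as another. Psmg1 read 14.9, 15.7 and 14.8, and Psmg2 read 0.985, 0.986 and 1.05. Psmg3 read 1.3, 1.36 and 1.35, and Psmg4 read 2.61, 2.65 and 2.60. None of these 4 genes left the control by 2 spot errors at either dose. They ranged from -0.10 ± 0.07 (Psmg2) to 0.01 ± 0.05 (Psmg1) at the high dose.

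The activators cap the core particle in place of the regulatory particle. Psme1 and Psme2, the interferon-inducible pair, read 8.39, 8.61 and 8.47 and 16.8, 17.2 and 16.8. Both were within 2 spot errors of 0 throughout. Psme3, the nuclear activator, read 0.942 at 1 mg/ml, 0.952 at 0.01 mg/ml and 1.01 untreated, so that both treated arrays were low, by -0.10 ± 0.03 and -0.08 ± 0.03, which spike-in centring turned to 0.06 and 0.08. The inhibitor Psmf1 read 2.31, 2.59 and 2.5, which is -0.11 ± 0.06 from the control and -0.17 ± 0.06 from the low dose.

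Psme4, the large activator that acts on histones, read 1.49, 1.40 and 1.45 as the mean of its probes, but these probes disagreed. The probe of 10 spots (chr14:111997089-111997148 in rn4) read 1.1, 1.16 and 1.17, a difference of -0.08 ± 0.03 between high dose and control. The probe of 2 spots (chr14:111990483-111990542) read 2.0, 1.69 and 1.80, a difference of 0.16 ± 0.06. The probes differed from each other by -0.24 ± 0.07, and by -0.32 ± 0.07 between the doses, so the mean of 0.04 ± 0.03 hides opposite readings. No other gene with several measured probes (Psmd9, Psmf1 and Psmg4) had probes that went opposite ways by more than 2 spot errors.

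**Figure D2:**
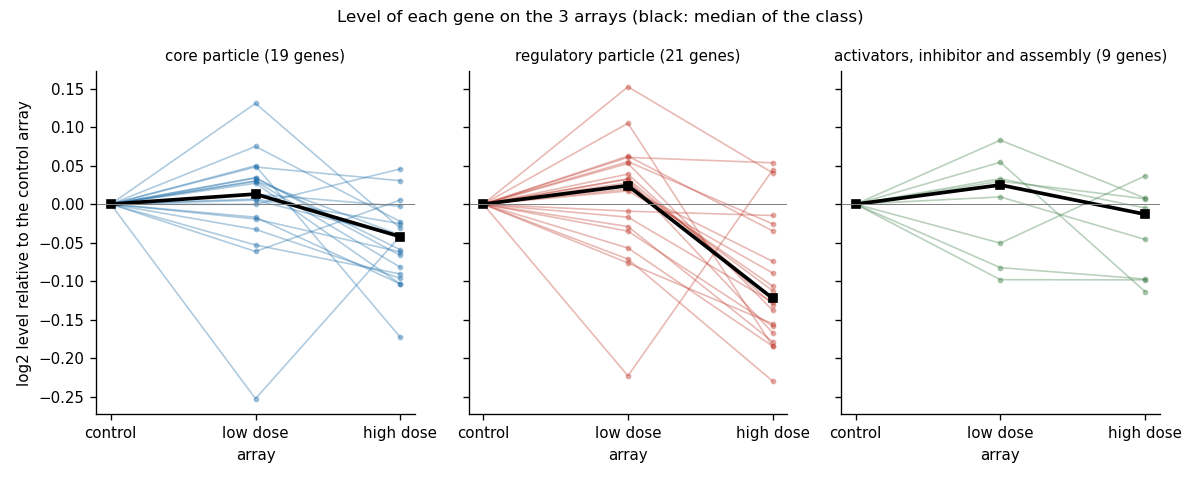
Level of each measured gene on the 3 arrays as log2 relative to the control array (thin lines: genes, black squares: median of the class, 75th percentile scale). The median of the regulatory particle is 0.02 at 0.01 mg/ml and -0.12 at 1 mg/ml. Over the whole family these medians are 0.02 and -0.07, and centring on the spike-in probes would lift them to 0.18 and 0.09.

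The high dose array had the lowest of the 3 readings for 39 of the 49 genes, against 40.8% of all genes and 46.3% of the genes as bright. With spike-in centring it was the lowest for 8 and the control array for 39, against 10.1% and 88.8% of the genes as bright. On the 75th percentile scale it was the lowest for 15 of 19 core genes, 18 of 21 regulatory particle genes and 6 of 9 activators, inhibitor and assembly genes. In the same order these counts were 11, 18 and 4 with quantile normalization (38.96% of all genes). They were 14, 17 and 3 with the authors' table of values (38.07% of all genes). The proteasome genes were bright, with a median at the 84.9 percentile of level. Genes as bright had medians of -0.01, 0.01 and -0.02 for high dose against control, low dose against control and high against low dose. Their share below the control by more than 2 spot errors was 16.9% at the high dose. In the cumulative plot, the proteasome genes are displaced from both sets wherever the high dose array is compared. Their SD at the high dose was 0.07 beside a spot error of 0.07 (root mean square), which Psmb8 and Psmb11, close to background at 0.24 each, raise. The genes as bright, a set without such dim genes, had an SD of 0.12 beside 0.06.

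**Figure D3:**
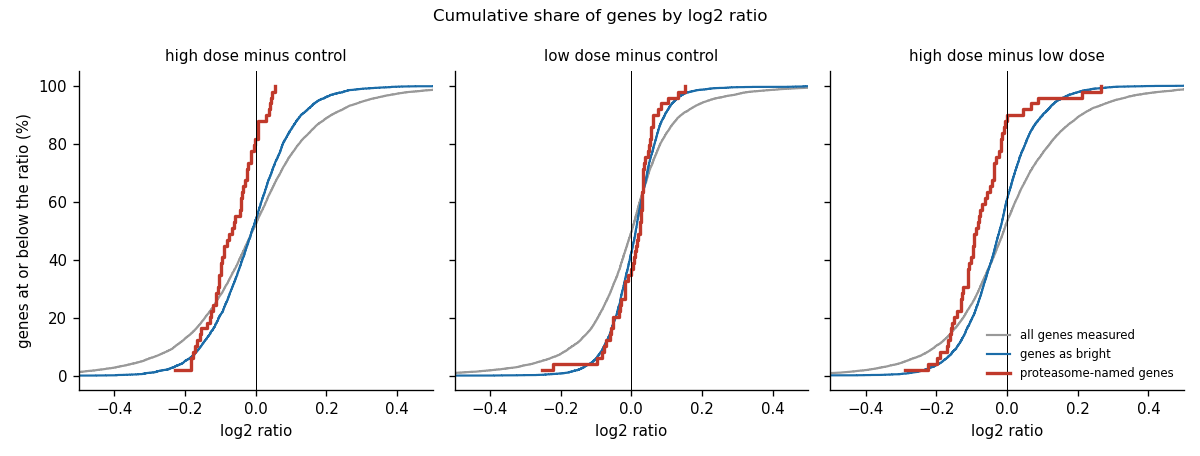
Cumulative share of genes (y axis, %) at or below a log2 ratio (x axis, 75th percentile scale) for the 49 proteasome genes, the 4779 genes as bright as them and all 14396 measured genes. The proteasome line runs left of the others through most of its course for high dose against control (median -0.07 beside -0.01) and high against low dose (-0.09 beside -0.02 for genes as bright), and moving the first panel to spike-in centring shifts all 3 lines right alike.

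The repeat spots show how far single readings separate. Of the 7 probes with 10 spots, Psmd12 had all 10 high dose spots (7.25 to 7.81) below all control spots (8.23 to 8.89), which 6.33% of all probes with 10 spots did. They were also below all 10 low dose spots (7.82 to 8.52), although the gap was small. With spike-in centring its high dose spots overlapped the control spots and stayed below the low dose spots. Psma5 had its high dose spots (12.5 to 13.3) below its low dose spots (13.4 to 14.4) but not below its control spots (13.1 to 14.1). The share of all such probes that separated in this way between the doses was 4.48%, against 2 of 7 here. At the low dose no probe with 10 spots separated from the control on this scale. With spike-in centring 4 of the 7 lay above the control there (Psma5, Psmb2, Psmd6 and Psme2), against 289 of all 1027 such probes. At the high dose Psme2 alone lay above its control spots with that centring, against 307 of 1027.

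Among the 42 measured probes with 2 spots, both high dose spots were below both control spots for 20 and above for 2, against 28.8% and 25.3% of all such probes. With spike-in centring it was 0 below and 22 above. For low dose against control, 3 were below and 9 above, against 18.9% and 19.0% (1 and 34 with spike-in centring). For high against low dose, 24 were below and 3 above, against 27.1% and 23.7% (25 and 3 with spike-in centring). The spots of a probe share an array and a culture, so this is a statement on the measurement alone.

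**Figure D4:**
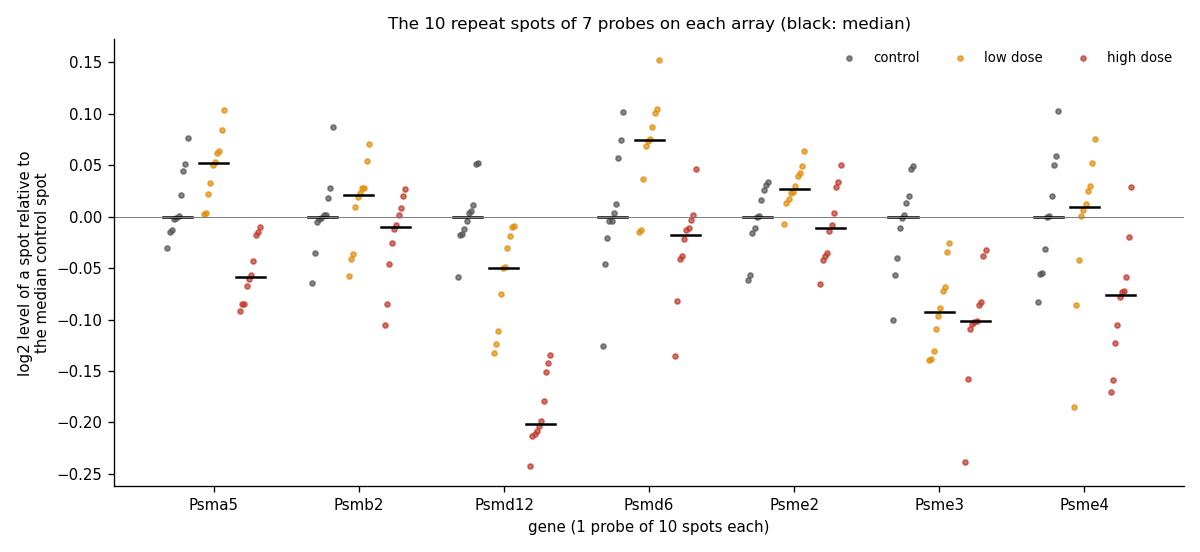
Each of the 10 repeat spots of 7 proteasome probes on the 3 arrays, as log2 level relative to the median control spot of the probe (y axis, 75th percentile scale; spots drawn in order of level, black bars: median). The red high dose spots of Psmd12 lie clear of its control spots on this scale but not with spike-in centring. Those of Psmb2, Psme2 and Psmd6 overlap their own control spots on this scale, and with spike-in centring those of Psme2 lie above.

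NRF1 binds the antioxidant response element, so the 250 bases before the annotated start of each gene were searched for the core letters TGACNNNGC, and for CCAAT and GGGCGG, on both strands. The RefSeq promoter table of the build GRCr8 held 44 of the 50 genes. The response element letters were found in 7 of these (15.9%), against 10.2% of all 27457 promoters and 12.5% of the 8642 promoters of measured genes. The 7 genes were Psma3, Psmb2, Psmb5, Psmb6, Psmd1, Psmd9 and Psme4. CCAAT was found in 21 (47.7%), against 34.3% of all promoters and 36.1% of measured genes, and GGGCGG in 31 (70.5%), against 32.4% and 58.8%. A match describes letters only. The promoters below belong to the catalytic genes Psmb5 and Psmb6 and the base gene Psmd1, the genes with the response element letters whose probes are printed above. The strand in parentheses is that of the gene, and capitals mark the letters found.
Psmb5 upstream, chr15:32047380-32047629 (-): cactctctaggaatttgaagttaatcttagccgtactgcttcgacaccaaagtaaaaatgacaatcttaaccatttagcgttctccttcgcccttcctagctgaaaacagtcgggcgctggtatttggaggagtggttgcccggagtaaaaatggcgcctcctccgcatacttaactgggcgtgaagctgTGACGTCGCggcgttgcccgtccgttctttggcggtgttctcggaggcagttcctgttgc
Psmb6 upstream, chr10:55737638-55737887 (+): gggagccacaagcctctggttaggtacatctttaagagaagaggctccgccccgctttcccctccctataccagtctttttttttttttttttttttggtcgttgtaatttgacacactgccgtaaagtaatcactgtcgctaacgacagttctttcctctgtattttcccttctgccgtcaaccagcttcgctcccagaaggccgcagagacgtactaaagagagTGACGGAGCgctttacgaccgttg
Psmd1 upstream, chr9:94157721-94157970 (+): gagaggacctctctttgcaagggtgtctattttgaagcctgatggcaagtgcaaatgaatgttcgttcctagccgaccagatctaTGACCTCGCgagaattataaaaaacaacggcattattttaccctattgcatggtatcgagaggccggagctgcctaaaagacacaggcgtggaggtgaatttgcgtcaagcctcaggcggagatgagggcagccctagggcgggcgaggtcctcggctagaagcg
In these genes the motif ended 51, 15 and 156 bases before the start, in the order printed. By the high dose differences, Psmb6 and Psmd1 were both at -0.17, Psmb5 at -0.10, Psma3 at 0.01, Psmb2 and Psmd9 at -0.03 and Psme4 at 0.04 as the mean of its disagreeing probes.

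Genes that act with the proteasome were described from lists of their own, whose medians ran from -0.04 to 0.09 at the high dose. NRF1 itself (Nfe2l1) read 1.90 at 1 mg/ml, 1.85 at 0.01 mg/ml and 1.75 untreated, a difference of 0.12 ± 0.06. Ddi2, the protease that activates NRF1, read 0.109, 0.122 and 0.109. Of 11 measured genes that act on or beside NRF1, 7 were above the control at 1 mg/ml, with a median of 0.05. The furthest was the related factor Nfe2l3, close to background, at -0.41 ± 0.18, and Nfe2l2, which directs the antioxidant response, was at 0.30 ± 0.06.

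The ubiquitin gene Ubb was at 0.04 ± 0.05 at the high dose. Of 28 measured genes for ubiquitin activating and conjugating enzymes, 12 were above and 16 below, with a median of -0.02. Uba1, the main activating enzyme, was the furthest, at 8.06, 9.46 and 9.63, a difference of -0.26 ± 0.04. Among 13 other factors that bind or assemble the proteasome, 9 were above the control, with a median of 0.02. Pomp, which matures the core particle, was at -0.10 ± 0.02. Adrm1, a ubiquitin receptor of the base read by 1 spot, was at -0.23 ± 0.13 at 1 mg/ml and -0.25 ± 0.13 at 0.01 mg/ml. Of 15 genes for substrate shuttling and unfolding, 6 were above and 9 below, with a median of -0.04. Ufd1, a cofactor of the unfoldase Vcp, was the furthest at 0.19 ± 0.06, and Sqstm1, which carries ubiquitinated cargo to autophagy, was at 0.18 ± 0.04.

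Interferon and antigen presentation genes, which are induced together with the immunoproteasome, had 8 of 11 above the control at the high dose and a median of 0.09. The furthest was Tapbp, which loads peptides on class I molecules, at 0.25 ± 0.09. Complexes built like the lid were compared as well. The COP9 signalosome had a median of -0.04 over 10 genes (3 above), with Cops7b furthest at -0.29 ± 0.12, and the translation factor eIF3 had -0.03 over 13 genes (5 above), with Eif3b furthest at -0.25 ± 0.06. The CCT chaperonin, another large cytosolic ring complex, had a median of -0.06 over 8 genes (2 above), with Cct8 furthest at -0.13 ± 0.07. In the same comparison the core particle had a median of -0.04 and the regulatory particle -0.12. Spike-in centring moves every gene alike, which put the median of all genes at 0.15, so these medians keep their order and lie above 0 on that scale.

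**Figure D5:**
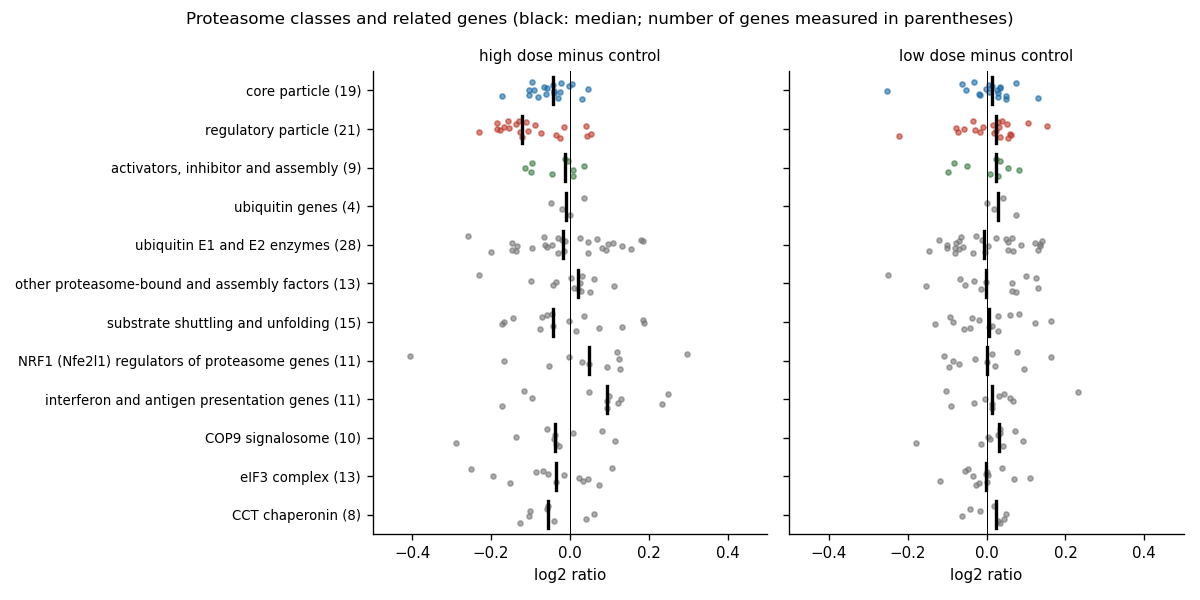
Log2 ratios of single genes (points) and their medians (black bars) for the 3 proteasome classes and 9 related gene lists, for each dose against the control (x axis: log2 ratio, 75th percentile scale). At the high dose the regulatory particle has the lowest median of the 12 sets, -0.12, and the interferon and antigen presentation genes the highest, 0.09, while spike-in centring moves all points right by the same amount.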

How the data were processed

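RNA of ROS17/2.8 cells was read on 3 one-colour arrays, 1 per group. The authors deposited the scanner's intensity for every spot. Per the file headers, it came from Agilent Feature Extraction 10.7.3.1 (protocol GE1_107_Sep09, array design 028279, coordinates in rn4) and had its background and spatial trend removed array by array, with no scaling between arrays. The deposited files also flag spots well above background and outliers. The authors also deposited a table of values that, checked against the scanner files, is a ratio, namely the processed signal over 1 constant per array (823, 849 and 823 for high dose, low dose and control). Its column medians were 0.0734, 0.0731 and 0.0737. It is on a linear scale, not centred between genes, and has the same direction as the scanner values, but the sources used here do not say how the constants were chosen. It served as an alternative.

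From these, each processed signal was divided by the 75th percentile of its array (58717 spots) and put on the log2 scale. Outlier spots (352, 368 and 426, with 1 among the proteasome spots over the 3 arrays) were left out, unless every spot of a probe was one; none was saturated. Spots were averaged per probe and probes per gene. The spot error pools the SD of repeat spots in 20 bins of level. With 1 array per group, that number limits the precision: no test could be made. Symbols outside the family were updated through RefSeq accessions for 18438 of 30367 probes (60.7%), and 51 of the 57 proteasome probes matched.

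The genes named by rule are the catalytic and inducible subunits, the 5 highest and 5 lowest at the high dose, genes at least 1.2-fold apart in any comparison, the activators, inhibitor and core chaperones, genes whose probes go opposite ways by over 2 spot errors, and, outside the family, Nfe2l1, Ddi2, Pomp, Adrm1, Ubb, Sqstm1 and the furthest gene of each list, except 1 that is not reported here. Those outside the family are given by their difference, and Nfe2l1, Ddi2 and Uba1 also by their levels. Psma1, Psma5, Psmc1, Psmc4, Psmd1, Psmd2, Psmd4, Psmd6, Psmd8, Psmd11, Psmd14, Sem1 and Nfe2l2 were named after their values were seen. The members and lists were chosen with earlier results of these data known. Alternatives were quantile normalization, spike-in centring, median centring, the authors' table, normexp background correction with an offset of 50 (limma 3.58.1 in R 4.3.3), other filters on dim or outlier spots and the brightest probe per gene. Leaving out Psmc3ip, Psma3l and Psmb11, or all genes below the median level, was added after seeing the data, as was the recount under every alternative of genes beyond 2 spot errors and lowest on the high dose array. Python 3.11.15, numpy 2.4.6, pandas 2.3.3 and matplotlib 3.10.9 were used.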

Additional observations from a re-analysis of the deposited data

How the results depend on the processing

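The direction against the control depended on the scaling between arrays. With the arrays centred on the spike-in probes, the median difference of the proteasome genes at the high dose was 0.088 in place of -0.07, and 41 in place of 9 genes were above the control. There, 0 in place of 14 genes were below by more than 2 spot errors and 19 in place of 0 above, and the high dose array was the lowest of the 3 for 8 in place of 39 genes. At the low dose it was 0.18 in place of 0.02, with 47 in place of 31 genes above, 3 in place of 0 at least 1.2-fold apart, and 39 in place of 2 above and 0 in place of 3 below by more than 2 spot errors. The median of all genes moved with it, to 0.15 and 0.16. Between the doses, where the scaling hardly acts, the median was -0.09 and 20 genes were below by more than 2 spot errors under both, but 1 gene in place of 2 was 1.2-fold apart. Under quantile normalization 10 in place of 5 genes were above 0 for high against low dose, and 13 in place of 20 were below by more than 2 spot errors. The number of genes at least 1.2-fold apart between the doses was 0 with normexp background correction and 1 without Psmc3ip, Psma3l and Psmb11. With no filter on dim probes 1 gene (Psma8, near background) was 1.2-fold apart from the control at each dose. At the low dose 1 gene in place of 2 was above by more than 2 spot errors with normexp, and at the high dose 1 in place of 0 with the brightest probe. The cause of these changes was not tested further. The other medians of the whole family, and its counts of genes above 0, 1.2-fold apart, beyond 2 spot errors and lowest on the high dose array, stayed within their limits (1.5 times for a count) under these settings, under leaving out genes below the median level and under median centring, the authors' table, the stricter dim-spot filter, outlier spots kept and the brightest probe. Single gene values moved beyond the spot error for 94 of 147 with spike-in centring, 5 with quantile normalization, 4 with the brightest probe and 2 with normexp, and for none under the rest. Separations of repeat spots were recomputed for spike-in centring alone. No paired analysis was possible because each group has 1 array. Genes close to background, such as Psmb8 and Psmb11, have spot errors of 0.22 to 0.25, which limits what could be seen there.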
